A study of Mus musculus with 9 samples.

Results

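The genes described here mark GABAergic interneurons of the mouse striatum: Sst, Npy, Nos1, Chodl, Pvalb, Pthlh, Kit, Calb2 and Lhx6. They were chosen by name, as every probe set whose only gene symbol in the platform annotation was one of these 9. Of the 9 genes, 8 had such a probe set, 1 each, among 21780 probe sets with a single symbol. No probe set carried Pthlh as its only symbol, so Pthlh was not analysed here. All 8 passed the filter on low values and were tested among 14880 genes; Chodl did so narrowly, with a mean log2 intensity of 6.05 over the arrays against a limit of 5.89.

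Total RNA of striatum was measured on 9 arrays, 3 in each of 3 groups. Acute MPTP mice were given 4 intraperitoneal injections of 20 mg/kg, 2 h apart, and were sampled 1 week later. Chronic MPTP mice were given 4 mg/kg once a day for 20 days and were sampled after 8 weeks. Controls were given saline on the acute schedule, 4 times with 2 h between injections, and were also taken at 1 week. MPTP is a neurotoxin whose metabolite enters dopamine neurons and inhibits respiratory complex I; each regimen added up to 80 mg/kg. Chronic MPTP differed from acute MPTP and from saline in regimen and in time together, and strain, sex and age are not given in the sources used here. No label ties an array to a single animal, so each p-value reflects how far these samples differ among themselves, a spread that may be technical.

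Striatal GABAergic interneurons are scattered among the far more numerous projection neurons, which they inhibit, and they receive dopamine input. One class releases somatostatin and neuropeptide Y and makes nitric oxide, another is fast-spiking and holds parvalbumin, and a further class holds calretinin. Many of them are born in the medial ganglionic eminence, where the transcription factor Lhx6 directs their fate. The same genes also mark interneurons of cortex and neurons of pallidum, thalamus, septum and hypothalamus, so a level in dissected tissue is not that of striatal interneurons alone. In bulk tissue, fewer cells of a type and less RNA per cell cannot be told apart.

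Values are log2 intensities of a probe set, and a step of 1 is a doubling. A difference counted as called when its p-value in limma, adjusted by Benjamini-Hochberg over all 16335 probe sets tested, was under 0.05. None of the 8 interneuron genes was called in any of the 3 comparisons. Over all probe sets 0% were called in acute MPTP against control, 0% in chronic MPTP against control, and 0.0122% in chronic against acute MPTP, the last being Nr4a1 and Arc. At an unadjusted p under 0.05 in limma, 0 of the 8 passed in acute MPTP against control, where 0.851% of all probe sets did. In chronic MPTP against control 1 of the 8 did, Kit, against 5.51% of all, and in chronic against acute MPTP 1 did, Npy, against 5.12%. These unadjusted counts moved with single arrays. In acute against control the count was 1 without control 1 and 2 without control 2 or without acute 3, and it was 1, Npy, with the replicate number as a block. In chronic against control it was 2 without control 1. Over all 19 alternatives this count ran from 0 to 2, and it fell to 0 only under settings other than leaving out 1 array. In chronic against acute it was 0 without acute 1, acute 2, chronic 1 or chronic 3, and 2 without control 2, control 3 or chronic 2. The median log2 fold change of the 8 genes was -0.01, -0.04 and -0.05 in these 3 comparisons, beside 0.00, -0.01 and -0.01 over all probe sets tested. In each comparison 3 of the 8 had a fold change above 0, against 51.5%, 46.7% and 46.1% of all probe sets. No interneuron gene had acute arrays wholly above or wholly below the controls, where 2.06% of all probe sets lay wholly above and 1.49% wholly below. The comparisons share groups, so their values are given side by side and not as independent evidence.

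Markers of neighbouring tissue differed between arrays, also within groups. The list of 8 measured projection neuron markers, among them Ppp1r1b, Drd1 and Drd2, was bright on every array: Ppp1r1b lay at 11.44 or above and Drd2 at 10.88 or above. Of 12 listed cortex markers 11 were measured, and their mean, centred on each gene's own mean over the arrays, was between 0.78 and 1.16 on control 1, acute 1 and acute 2, against -0.86 to -0.34 on the other 6 arrays. Of 14 listed markers of thalamus, septum and hypothalamus 13 were tested, and their mean was 0.52 on acute 3 and 1.17 on control 3, against at most 0.02 elsewhere. The same 2 arrays had the highest choroid plexus means, 1.57 on acute 3 and 0.88 on control 3. No chronic array was among those 5. The 2 neighbouring-tissue means, of cortex and of thalamus, septum and hypothalamus, were also used together as covariates. The projection neuron mean was used as a covariate without them. It was higher on every chronic array than on any other array, so a fit with it cannot fully separate its part from that of the group. Values from these fits are given where they bear on a gene.

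**Figure D1:**
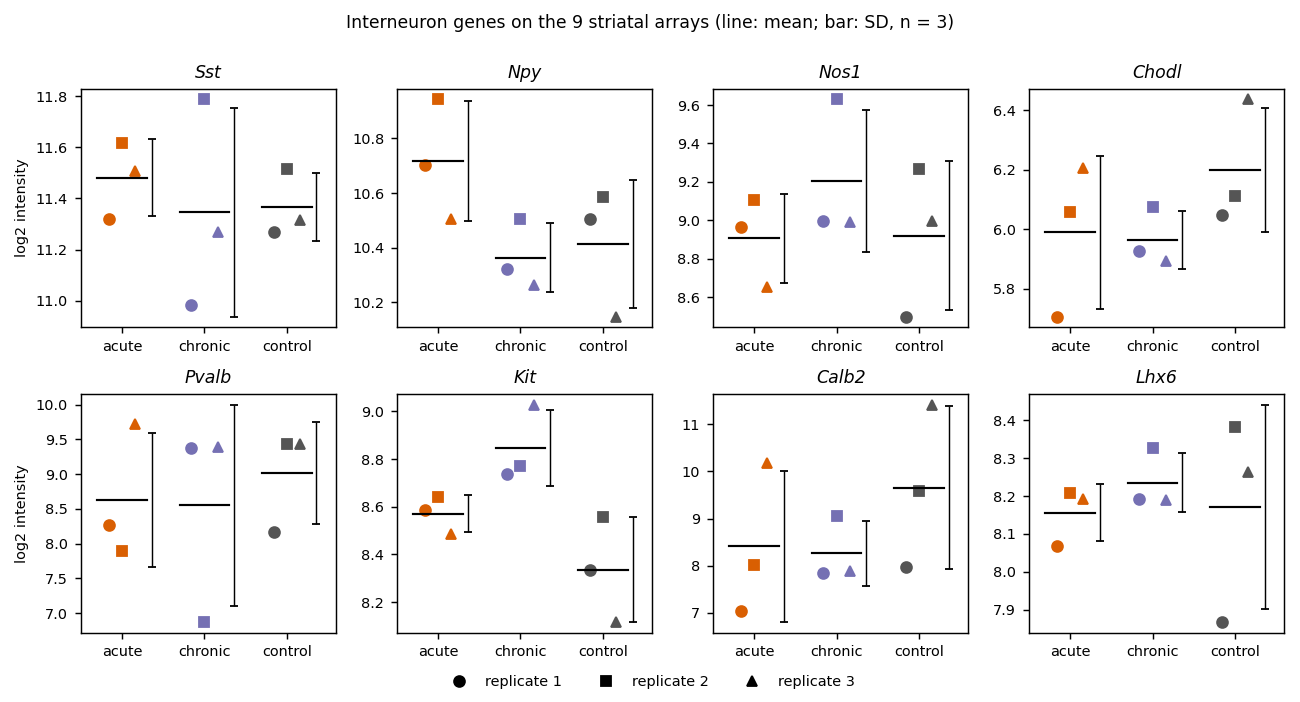
Log2 intensity (y axis, a separate range in each panel) of the 8 measured interneuron genes in the acute MPTP, chronic MPTP and saline control groups (x axis), with 1 point per array, a line at the group mean and a bar of 1 SD (n = 3). Only Kit has a group that lies wholly apart, chronic MPTP at 8.74 to 9.03, while Calb2 and Pvalb spread over 4.37 and 2.85 log2 units.

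Sst encodes somatostatin and Npy neuropeptide Y, inhibitory peptides that are released together by 1 class of these cells. The stretch of 250 bases before the transcription start of each is shown, since both peptide genes are known for transcription that responds to neuronal activity. The somatostatin promoter is where the cyclic AMP response element, the site of the activity-regulated factor CREB, was described. Capitals mark a full match to that element, TGACGTCA, which reads the same on both strands. The sequences are from the RefSeq promoter table, build GRCm38.p6, at chr16:23890845-23891094 on the minus strand for Sst and at chr6:49822460-49822709 on the plus strand for Npy, each printed 5′ to 3′.

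Sst: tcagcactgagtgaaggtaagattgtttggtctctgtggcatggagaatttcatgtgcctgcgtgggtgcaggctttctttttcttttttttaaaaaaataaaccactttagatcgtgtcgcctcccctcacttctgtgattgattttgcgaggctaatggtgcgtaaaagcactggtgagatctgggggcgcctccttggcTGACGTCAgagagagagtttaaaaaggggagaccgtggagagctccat
Npy: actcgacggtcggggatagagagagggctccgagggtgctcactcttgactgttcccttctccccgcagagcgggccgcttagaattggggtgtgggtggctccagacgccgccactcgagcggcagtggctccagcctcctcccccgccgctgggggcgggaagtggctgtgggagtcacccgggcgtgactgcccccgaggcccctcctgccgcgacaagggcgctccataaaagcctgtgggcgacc

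The match in Sst ends 40 bases before the start. The table held 12 windows of 8 of the 9 listed genes, Pthlh included and Calb2 not, and only the Sst window had a full match, against 1.55% of all 32851 windows of 250 bases. The shorter TGACG, part of the full element and searched on both strands, was found in Sst and Nos1 and in 17.8% of all windows. Searches for TATAAA, present in 12.4% of all windows, and for TAATTA, present in 4.84%, found neither in a window of these genes. A match of letters is a description of the sequence and not a measured site.

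Sst had log2 intensities of 11.32, 11.62 and 11.51 in acute MPTP, 10.98, 11.79 and 11.27 in chronic MPTP and 11.27, 11.52 and 11.31 in controls. The groups overlap throughout, and the chronic arrays hold both the lowest and the highest value. Limma gave a log2 fold change of 0.11 ± 0.19 (SE) in acute against control (adjusted p = 1), -0.02 ± 0.19 in chronic against control (adjusted p = 0.993) and -0.14 ± 0.19 in chronic against acute (adjusted p = 0.919). The 95% intervals of the differences from control ran from -0.31 to 0.54 for acute and from -0.44 to 0.40 for chronic MPTP. The order of the group means, acute, control, chronic, has no neighbours that differ beyond their spread.

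Npy had log2 intensities of 10.70, 10.94 and 10.51 in acute MPTP, 10.32, 10.51 and 10.26 in chronic MPTP and 10.51, 10.59 and 10.15 in controls. The acute arrays were the highest as a group, and the lowest of them met the highest chronic array. The fitted log2 fold change was 0.30 ± 0.15 for acute MPTP against control (limma, adjusted p = 1), -0.05 ± 0.15 for chronic MPTP against control (adjusted p = 0.988) and -0.35 ± 0.15 for chronic against acute MPTP (unadjusted p = 0.0403, adjusted p = 0.877). Arrays of the same replicate number deviated together across the genome, though weakly for control 2, with r of 0.19 to acute 2 and 0.16 to chronic 2. No label states that same-numbered arrays belong together, so treating them as pairs or blocks rests on these same values. By number acute exceeded control by 0.20, 0.36 and 0.36, while chronic lay below acute by differences of -0.38, -0.44 and -0.24. With the replicate number as a block the unadjusted p of limma was 0.00522 for acute against control and 0.00223 for chronic against acute, with adjusted p = 0.98 and 0.232. Without the 3 arrays high in cortex markers, which leaves 1 acute array, these differences were 0.14 and -0.14; Npy is also a gene of cortical interneurons, and the part of cortex tissue in the result was not tested. Acute against control was also 0.17 without control 3 and 0.19 without acute 2. Over all 19 alternatives, the marker covariates included, acute against control ran from 0.14 to 0.41. Chronic against control ran from -0.24 to 0.04 and chronic against acute from -0.46 to -0.14.

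Nos1, the neuronal nitric oxide synthase, had log2 intensities of 8.96, 9.10 and 8.65 in acute MPTP, 8.995, 9.63 and 8.99 in chronic MPTP and 8.50, 9.27 and 8.995 in controls. The highest value was on chronic 2 and the lowest on control 1. Group means were 8.91 ± 0.23 after acute MPTP, 9.20 ± 0.37 after chronic MPTP and 8.92 ± 0.39 in controls (SD, n = 3 each). The log2 fold change was -0.01 ± 0.23 in acute against control, 0.28 ± 0.23 in chronic against control and 0.30 ± 0.23 between chronic and acute MPTP (chronic minus acute; limma, adjusted p = 1, 0.959 and 0.878). Without chronic 2 the differences of chronic MPTP were 0.07 against control and 0.09 against acute MPTP, and without control 1 that against control was 0.07.

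Chodl, a C-type lectin that marks the neurons holding both somatostatin and nitric oxide synthase, was the dimmest of the 8. Its log2 intensity was 5.71, 6.06 and 6.21 in acute MPTP, 5.93, 6.07 and 5.89 in chronic MPTP and 6.05, 6.11 and 6.44 in controls. All groups overlap. The log2 fold change was -0.21 ± 0.15 in acute against control, -0.23 ± 0.15 in chronic against control and -0.03 ± 0.15 between chronic and acute MPTP (chronic minus acute; limma, adjusted p = 1, 0.953 and 0.988). By replicate number the acute differences from control were -0.34, -0.06 and -0.23 and the chronic ones -0.12, -0.04 and -0.54, so all 3 pairs lay below 0 in both. Acute against control was -0.07 without acute 1, -0.09 without control 3 and -0.32 without acute 3, and chronic against control was -0.12 without control 3. With the projection neuron mean as a covariate these 2 comparisons gave -0.06 and 0.04, and with the cortex and thalamus means -0.10 and -0.04. Near the lower end of the intensity scale a probe set understates differences, which limits what Chodl can show.

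The genes of this cell class did not share 1 pattern over the arrays. Pearson's r over the 9 arrays was 0.54 for Sst with Nos1 and 0.51 for Sst with Npy, while it was -0.01 for Nos1 with Chodl and -0.35 for Npy with Chodl. Between these lay Sst with Chodl at 0.26 and Npy with Nos1 at 0.11. For deviations from the group means r was 0.72 for Sst with Nos1, 0.46 for Sst with Npy and 0.47 for Npy with Nos1. With Chodl it was then 0.38 for Sst, 0.16 for Nos1 and -0.40 for Npy. These r values describe 9 arrays of 3 groups, in which arrays share replicate numbers, and carry no test. Chodl ran with Calb2 instead (r = 0.94), as described under Calb2.

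Pvalb encodes parvalbumin, a calcium buffer of fast-spiking interneurons. Its log2 intensity was 8.27, 7.89 and 9.72 in acute MPTP, 9.38, 6.88 and 9.40 in chronic MPTP and 8.17, 9.44 and 9.43 in controls. Of the 9 arrays, 5 lay between 9.38 and 9.72, and chronic 2 lay below every other. Low values of 7.89 to 8.27 were on the 3 arrays high in cortex markers, whereas chronic 2 had a cortex mean of -0.35, like the arrays with high Pvalb. The part of tissue makeup in these levels was not tested.

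The spread of Pvalb within groups, an SD of 1.09, exceeded that of 99.9% of tested probe sets, whose median was 0.16. The log2 fold change was -0.39 ± 0.72 in acute against control, -0.47 ± 0.72 in chronic against control and -0.08 ± 0.72 between chronic and acute MPTP (chronic minus acute; limma, adjusted p = 1, 0.977 and 0.993). Single arrays moved all 3 values. Acute against control was -0.02 without acute 2, -0.93 without acute 3 and -0.81 without control 1, and between -0.21 and -0.17 without acute 1, control 2 or control 3. Without the 3 arrays high in cortex markers, which leaves 1 acute array, it turned to 0.29. Chronic MPTP against control turned to 0.37 without chronic 2, and chronic against acute to 0.76. With the cortex and thalamus marker means as covariates the differences of chronic MPTP were -1.58 against control and -1.39 against acute. These again rest on an array set that includes chronic 2. The lowest values over all 19 alternatives were -1.27 for acute against control, -2.03 for chronic against control and -1.40 for chronic against acute. Kcnc2, a potassium channel subunit that lets such neurons fire fast, was likewise lowest on chronic 2, at 7.55, against 8.33 to 9.88 on the other arrays. Kcnc2 was picked from its list after its values were seen, and other genes of fast-spiking cells in that list did not follow it. Kcnc1, a related channel subunit, and Cox6a2, a mitochondrial protein, were both lowest on control 1, at 9.03 and 7.27, against 9.46 and 7.64 on chronic 2.

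Kit, the receptor tyrosine kinase for Kit ligand, was the member with the smallest p in chronic MPTP against control. Its log2 intensity was 8.59, 8.64 and 8.49 in acute MPTP, 8.74, 8.77 and 9.03 in chronic MPTP and 8.34, 8.56 and 8.12 in controls. Every chronic array lay above every acute and every control array, and the acute and control arrays overlapped. Of all probe sets tested, 2.88% had chronic arrays wholly above the controls and 3.61% had them wholly above the acute arrays, and the count of 1 in 8 is this single gene in both. The mean was 8.57 ± 0.08 after acute MPTP, 8.85 ± 0.16 after chronic MPTP and 8.34 ± 0.22 in controls (SD, n = 3 each).

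The log2 fold change of Kit was 0.51 ± 0.13 for chronic MPTP against control, a 1.42-fold difference with a 95% interval of 0.22 to 0.80 on the log2 scale. Its unadjusted p in limma was 0.00296, the 37th smallest of 16335, and its adjusted p was 0.876. The log2 difference was 0.24 ± 0.13 for acute MPTP against control and 0.28 ± 0.13 for chronic against acute MPTP (limma, adjusted p = 1 and 0.877). By replicate number chronic exceeded control by 0.40, 0.22 and 0.91. Kitl, the gene of its ligand, overlapped between groups, at 8.52 to 8.74 on the chronic arrays and 8.28 to 8.68 on the controls.

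Kit ran beside the markers of projection neurons. In chronic MPTP against control all 8 of them had a log2 fold change above 0, with a median of 0.58, and 7 had an unadjusted p under 0.05 in limma, though 0 were called. Over all probe sets 46.7% had a fold change above 0 in this comparison and 5.51% had such a p. The centred mean of those 8 markers was between -0.02 and 0.09 on the acute arrays and between 0.16 and 0.40 on the chronic arrays, against -0.39, 0.08 and -0.56 on controls 1, 2 and 3. Control 3 and control 1 had the lowest values of both, and chronic 3 the highest of both. A setting added after the data were seen used the projection neuron mean as a covariate. That mean was higher on every chronic array than on any other array, so this fit cannot fully separate its part from that of the group. The difference of chronic MPTP against control was then 0.13 ± 0.16, and acute against control 0.02 ± 0.12. With the cortex and thalamus means as covariates it was 0.27 ± 0.16 for chronic against control. Without the 3 arrays high in cortex markers it stayed at 0.51, and without the 2 high in choroid plexus markers it was 0.40.

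**Figure D2:**
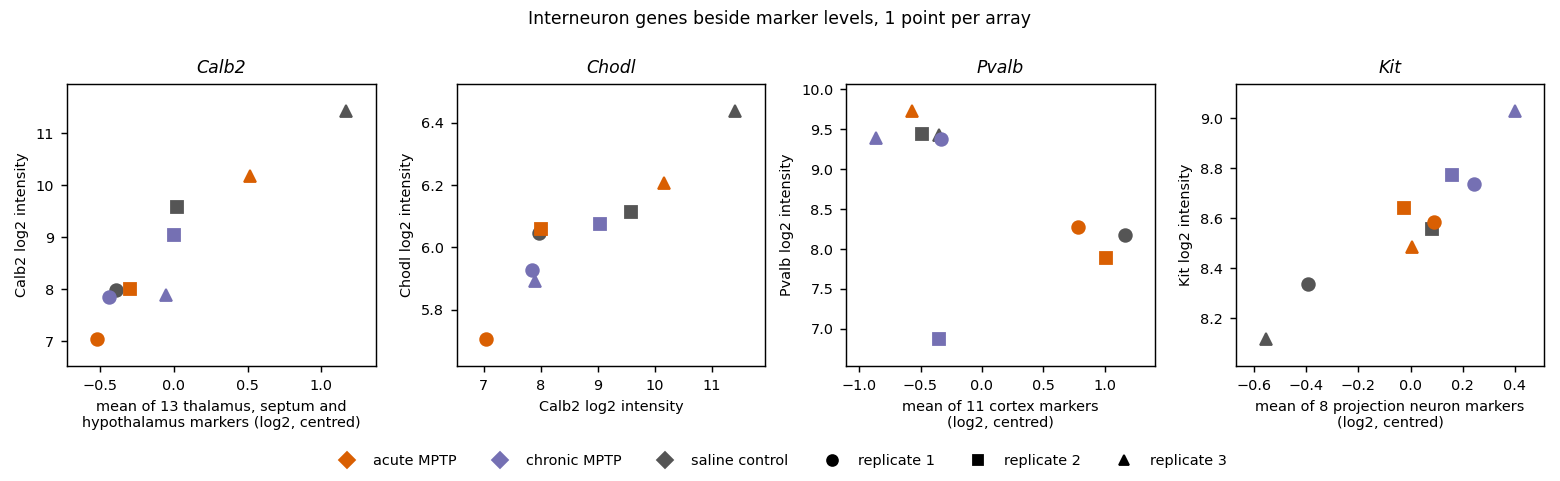
Log2 intensity of Calb2, Chodl, Pvalb and Kit (y axes), 1 point per array, against the centred mean of 13 thalamus, septum and hypothalamus markers, the log2 intensity of Calb2, the centred mean of 11 cortex markers and the centred mean of 8 projection neuron markers (x axes, log2 units). Colours give the group and shapes the replicate number. Calb2 is highest on control 3 and acute 3, Chodl follows Calb2, Pvalb is lowest on chronic 2 and otherwise low on the 3 arrays high in cortex markers, and Kit is lowest on control 3 and highest on chronic 3.

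Calb2 encodes calretinin, a calcium-binding protein of another interneuron class and of many neurons of thalamus, septum and hypothalamus. It had the widest range of the 8 genes, 4.37 log2 units or 20.7-fold, wider than that of 99.98% of tested probe sets. Its log2 intensity was 7.05, 8.01 and 10.17 in acute MPTP, 7.84, 9.05 and 7.89 in chronic MPTP and 7.98, 9.58 and 11.42 in controls. The highest values were on control 3 and acute 3, the 2 arrays highest in thalamic, septal and hypothalamic markers, and the lowest was on acute 1, which was lowest in them.

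Its log2 fold change was -1.25 ± 0.94 in acute against control, -1.40 ± 0.94 in chronic against control and -0.15 ± 0.94 between chronic and acute MPTP (chronic minus acute; limma, adjusted p = 1, 0.958 and 0.988). By replicate number acute lay below control in all 3 pairs, with differences of -0.93, -1.57 and -1.25, and chronic against control gave -0.14, -0.53 and -3.53. With the cortex and thalamus means as covariates the first 2 comparisons gave -0.42 and -0.71. Without control 3 they gave -0.37 and -0.52, without acute 3 acute against control gave -2.13, and without control 1 they gave -2.09 and -2.24. Without the 2 arrays high in choroid plexus markers they gave -1.25 and -0.52, and with the projection neuron mean as a covariate -0.58 and -0.22. Without the 3 arrays high in cortex markers, which leaves 1 acute array, they gave -0.33 and -2.24. Chronic against acute changed sign with the arrays used, from -1.91 without the 3 arrays high in cortex markers to 0.73 without the 2 high in choroid plexus markers.

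Chodl followed nearly the same order over arrays as Calb2, with Spearman's rho of 0.98 and Pearson's r of 0.94 over 9 arrays. For deviations from the group means r was 0.92. Tac2, the tachykinin gene for neurokinin B, which striatal interneurons and hypothalamic and septal neurons express, also spread widely. Its log2 intensity was 6.85, 7.78 and 9.25 in acute MPTP, 7.26, 8.65 and 8.14 in chronic MPTP and 7.13, 9.74 and 10.20 in controls. Its difference of acute MPTP against control was -1.07 ± 0.83 (limma, adjusted p = 1).

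Lhx6, the transcription factor of interneurons from the medial ganglionic eminence, was among the steadier of the 8. Its log2 intensity was 8.07, 8.21 and 8.19 in acute MPTP, 8.19, 8.33 and 8.19 in chronic MPTP and 7.87, 8.38 and 8.26 in controls. The control arrays held both the lowest and the highest value, so the groups overlap. Lhx6 had a log2 fold change of -0.02 ± 0.13 for acute MPTP against control, with a 95% interval of -0.31 to 0.28. It was 0.06 ± 0.13 for chronic MPTP against control (interval -0.23 to 0.36) and 0.08 ± 0.13 for chronic against acute MPTP (interval -0.21 to 0.37), with adjusted p = 1, 0.981 and 0.93 in limma. Lhx6 and Nos1 had an r of 0.78 over the 9 arrays, and both were lowest on control 1 among the controls.

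**Figure D3:**
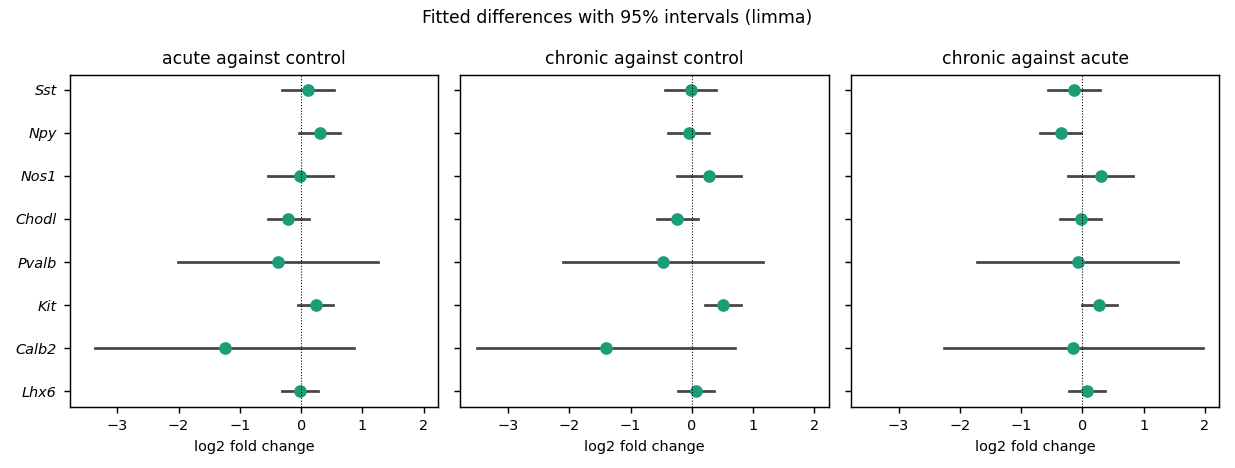
Log2 fold change (x axis, points) with its 95% interval from limma (lines) for the 8 interneuron genes (rows) for acute against control, chronic against control, and chronic against acute. The intervals of Calb2 and Pvalb are the widest, and that of Kit in chronic MPTP against control, 0.22 to 0.80, is 1 of the 2 that leave out 0, the other being Npy in chronic against acute MPTP.

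Genes that work with these markers were taken from lists chosen with earlier results of these data known. None of their 54 tested genes in 5 lists was called in any comparison, and in acute MPTP against control 0 had an unadjusted p under 0.05 in limma. Over all probe sets the shares at that p were 0.851% in that comparison, 5.51% in chronic against control and 5.12% in chronic against acute. List medians of the log2 fold change follow in the order acute against control, chronic against control, chronic against acute, and stand beside the medians of 0.00, -0.01 and -0.01 over all probe sets. Of the enzymes and transporters that make, load and clear GABA, 6 of 7 listed were measured, with medians of -0.05, 0.08 and 0.16 and none at an unadjusted p under 0.05. Gad1, which makes GABA, ran from 11.54 to 11.72 on the acute arrays and from 11.68 to 11.72 on the chronic arrays, against 11.35 to 11.78 on the controls. Gad2, the second synthetic enzyme, had -0.11 ± 0.20 for acute MPTP against control (limma, adjusted p = 1). Projection neurons make GABA too, so these genes do not single out interneurons. In chronic against acute MPTP the smallest p-values were those of Abat, which breaks GABA down (0.17 ± 0.14), and Gad2 (0.18 ± 0.20). Slc6a11, a GABA transporter, lay below control by log2 differences of -0.49 ± 0.31 in acute and -0.35 ± 0.31 in chronic MPTP, neither past the test. Slc38a1, a glutamine transporter, had -0.20 ± 0.18 in chronic MPTP against control.

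Among 12 tested genes of interneuron development, 1 had an unadjusted p under 0.05 in limma in chronic MPTP against control and 1 in chronic against acute MPTP, the same gene in both; the list medians were -0.02, -0.02 and 0.12. This was Dlx6, a homeobox factor of forebrain GABA neurons, which lay at 8.84, 8.84 and 8.74 in acute MPTP, 9.17, 9.21 and 9.05 in chronic MPTP and 8.47, 8.96 and 8.48 in controls. Its log2 fold change was 0.50 ± 0.13 for chronic MPTP against control and 0.33 ± 0.13 for chronic against acute MPTP (adjusted p = 0.876 and 0.877 in limma). Like Kit, Dlx6 was low on control 1 and control 3. Maf, which guides interneurons of the medial ganglionic eminence, differed by 0.31 ± 0.14 in chronic MPTP against control, and Sox6 by 0.17 ± 0.08 in chronic against acute MPTP. For acute MPTP against control the smallest p-values were those of Erbb4, a neuregulin receptor of interneurons, at -0.18 ± 0.10, and Sox6 at -0.15 ± 0.08.

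The receptors of the peptides were tested in a list of 11 ligands and receptors, with medians of 0.01, -0.08 and -0.16. At an unadjusted p under 0.05 in limma 2 passed in chronic MPTP against control and 1 in chronic against acute MPTP. Sstr1, a somatostatin receptor, lay at 7.68, 8.15 and 7.49 in acute MPTP, 7.02, 7.35 and 7.02 in chronic MPTP and 8.36, 7.45 and 8.05 in controls. Every chronic array was below every acute and every control array, as in 3.67% of all probe sets against control and 5.01% against acute. Sstr1 had a log2 fold change of -0.83 ± 0.24 for chronic MPTP against control and -0.64 ± 0.24 for chronic against acute MPTP (adjusted p = 0.876 and 0.877 in limma). Sstr1 was high on control 1 and acute 2, which were high in cortex markers, and on control 3, which was not. On acute 1, also high in cortex markers, Sstr1 was lower, at 7.68. The part of cortex tissue in its difference was not tested. Sstr3 differed by -0.35 ± 0.18 in chronic against acute MPTP. Pth1r, the receptor of the Pthlh product, was at 6.83, 6.65 and 6.61 on the chronic arrays, against 7.05, 6.83 and 6.87 on the controls, with a log2 fold change of -0.22 ± 0.10 (limma, adjusted p = 0.899). For acute MPTP against control the smallest p-values were those of Cort, which encodes the related peptide cortistatin, at 0.14 ± 0.12, and of the neuropeptide Y receptor gene Npy2r, at -0.33 ± 0.33.

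Nitric oxide acts through guanylyl cyclase and cyclic GMP, and 10 genes of that route were tested, with medians of 0.04, 0.12 and 0.06. At an unadjusted p under 0.05 in limma 2 passed in chronic MPTP against control, Gucy1a1 and Pde1b, and 0 in chronic against acute MPTP. Gucy1a1, a subunit of the cyclase, was at 10.01, 9.94 and 10.02 on the chronic arrays, against 9.63, 9.94 and 9.54 on the controls, a log2 fold change of 0.29 ± 0.11 (limma, adjusted p = 0.898), and 0.21 ± 0.11 for acute MPTP against control. Pde1b, a phosphodiesterase abundant in projection neurons, differed by 0.39 ± 0.15 in chronic MPTP against control (adjusted p = 0.893 in limma). Both were lowest on control 3 and next lowest on control 1, as the mean of the projection neuron markers was. Prkg1, a kinase that cyclic GMP activates, had -0.24 ± 0.13 for acute MPTP against control, with all acute arrays below all controls, as in 1.49% of probe sets. Chronic MPTP against control gave -0.29 ± 0.13 for Prkg1, with all chronic arrays also below all controls, as in 3.67% of probe sets. In chronic against acute MPTP the smallest p-values were those of Dlg4 (0.18 ± 0.11), the scaffold PSD-95 that holds the synthase at synapses, and Nos1ap (-0.21 ± 0.16).

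Of 15 tested genes of other interneuron classes, 5 had an unadjusted p under 0.05 in chronic MPTP against control in limma, beside 5.51% of all probe sets. In chronic against acute MPTP 1 did, Cck, beside 5.12% of all. The list medians were -0.04, 0.08 and 0.19. The 5 were Cck, Tacr1, Reln, Chat, which makes acetylcholine, and Slc5a7, which takes up choline for it; Cck lay below control and the other 4 above. Chat (0.58 ± 0.21), Slc5a7 (0.77 ± 0.28) and Cck (-1.19 ± 0.46) in that comparison were named after their values were seen. Tacr1, the substance P receptor, had a log2 fold change of 0.67 ± 0.23 and Reln, the secreted protein reelin, 0.53 ± 0.18 (adjusted p = 0.876 for both). In chronic against acute MPTP Reln had 0.36 ± 0.18. Tacr1 was at 9.04, 9.11 and 9.11 in acute MPTP, 9.21, 9.48 and 9.83 in chronic MPTP and 8.36, 9.32 and 8.81 in controls. Cck, a peptide of cortical neurons as well as of interneurons, was at 9.13, 8.46 and 8.77 on the chronic arrays, against 10.57, 11.01 and 9.36 on the acute arrays (log2 fold change -1.52 ± 0.46, adjusted p = 0.877 in limma). Among the acute arrays Cck was higher on the 2 that were high in cortex markers. Tacr1 had 0.26 ± 0.23 in acute MPTP against control.

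For each interneuron gene the 3 most similar of 14880 tested genes were taken by Pearson's r of log2 intensity over the 9 arrays, as a description. Calb2 was most like Igsf1 (r = 0.99), Pcbd1 (0.97) and Gpr161 (0.97), and Chodl most like Irs1 (0.97), Gpr161 (0.96) and Myt1 (0.96), so Gpr161 was common to both. Kit was most like Zbtb8a (0.98), Zswim6 (0.97) and Syt6 (0.97). Pvalb was most like Tmem123 (0.97), Psat1 (0.96) and Flt3 (0.95). Nos1 was most like Mapkbp1 (0.99), Zbtb7a (0.98) and Trrap (0.98), and Lhx6 most like Sall2, Pacs2 and Spsb4 (0.98, 0.98 and 0.97). Sst was most like Dxo, Coq8b and Tbkbp1 (0.96, 0.96 and 0.94), and Npy most like Rnf145, E4f1 and Lurap1 (0.96, 0.95 and 0.95). With 9 arrays and this many genes, values of this size arise for each of the 8, and no interneuron gene was among the 3 most similar to another.

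**Figure D4:**
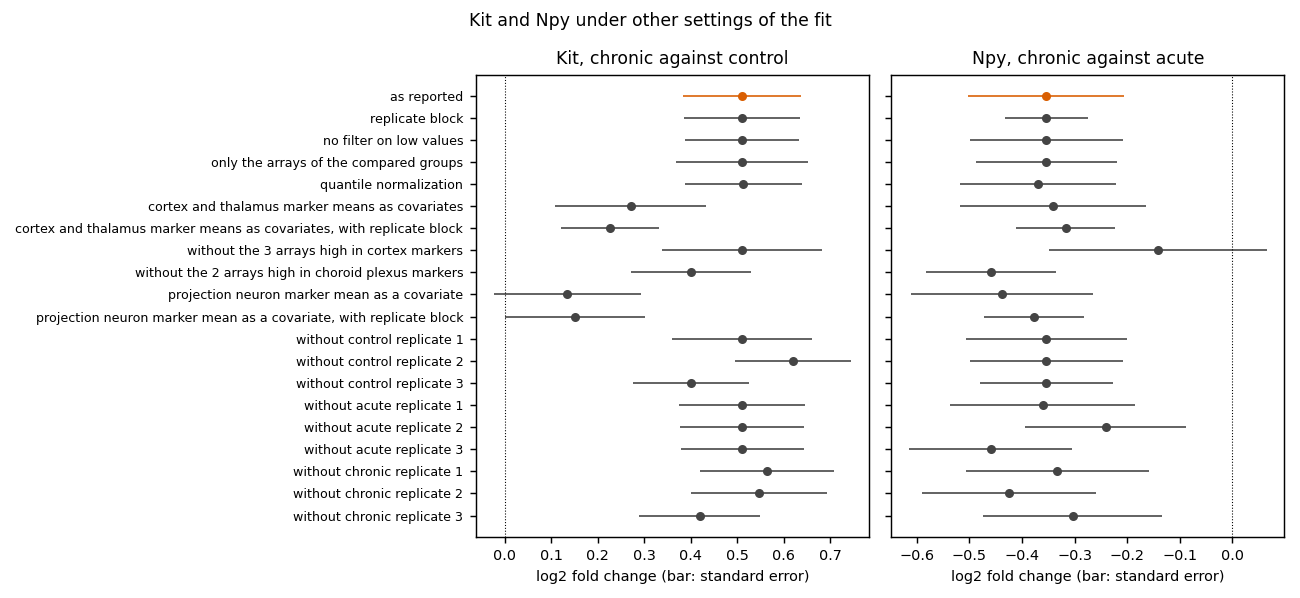
Log2 fold change (x axis, points; bars are 1 standard error) of Kit in chronic MPTP against control and of Npy in chronic against acute MPTP as reported and under 19 other settings of the fit (rows). Kit ran from 0.13 with the projection neuron mean as a covariate to 0.62 without control 2. Npy ran from -0.46 without acute 3, or without the 2 arrays high in choroid plexus markers, to -0.14 without the 3 arrays high in cortex markers. That last setting leaves 1 acute array.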

How the data were processed

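The members and gene lists were chosen with earlier results of these data known. Striatal RNA, 200 ng per array, was purified on Qiagen columns and labelled as biotinylated cDNA, per the labels' protocols. The deposited values are log2 intensities, a scale read from the values (medians of 6.85 to 6.90 on each array); background correction, normalization and summary are not given in the sources used here, and no further scaling was applied. Symbols came from the annotation of the platform (21780 with 1 symbol, 1605 with several, 5430 with none). Those with 1 symbol and a mean at or above the 25th percentile, 16335, were fitted with limma 3.58.1 in R 4.3.3, a mean per group over the 9 arrays, two-sided, and adjusted by Benjamini-Hochberg within each comparison. The number of arrays limits the precision. The code was tested on simulated data. A gene with several probe sets was represented by that with the highest mean. Named genes were the members, the 2 genes with the smallest p in each list and comparison, the 3 most similar to each member, and the projection neuron markers that check the tissue. Kcnc2, Kcnc1, Cox6a2, Kitl, Gad1, Chat, Slc5a7, Cd24a and the other named neuroblast and pallidum markers fall outside that rule and were named with their values known. Same-numbered arrays of different groups correlated in their deviations from group means in all 9 pairs (r from 0.157 to 0.673, against -0.609 to 0.184 in the 18 other pairs), so each test was also run with that number as a block. The numbers come from the sample titles. That same-numbered arrays belong together is read from the values and is not stated in the labels. Deviations within a group add up to 0, so higher r in some pairs goes with lower r in others. Alternatives covered the filter, the normalization, covariates and left-out arrays. No pair of arrays shared more than 6.34% of its values.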

Additional observations from a re-analysis of the deposited data

How the results depend on the processing

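Under all 19 alternatives none of the 8 interneuron genes passed the threshold in any of the 3 comparisons; the lowest adjusted p among them in limma was 0.738 in acute against control, 0.161 in chronic against control and 0.232 in chronic against acute. The replicate number as a block changed no call: adjusted p was 0.255 for Kit in chronic against control and 0.232 for Npy in chronic against acute. Signs turned for some differences, none of which was called. With the cortex and thalamus marker means as covariates, the log2 fold change in acute against control was 0.0096 for Nos1 and 0.032 for Lhx6, in chronic against control 0.058 for Sst and -0.020 for Lhx6, and in chronic against acute 0.058 for Chodl and -0.052 for Lhx6. With those means and the block it was 0.14 for Nos1 and 0.079 for Lhx6 in acute against control, 0.085 for Sst in chronic against control, and 0.060 for Chodl and -0.057 for Lhx6 in chronic against acute. Without the 3 arrays high in cortex markers, which leaves 1 acute array, it was 0.288 for Pvalb in acute against control and -0.088 for Lhx6 in chronic against control. Without the 2 arrays high in choroid plexus markers it was 0.15 for Nos1 and 0.013 for Lhx6 in acute against control, and 0.47 for Pvalb, 0.73 for Calb2 and 0.082 for Chodl in chronic against acute. With the projection neuron mean as a covariate, chosen after seeing the data, it was 0.036 for Chodl and -0.070 for Lhx6 in chronic against control, and 0.37 for Calb2 and 0.092 for Chodl in chronic against acute. With that mean and the block it was 0.013 for Nos1 in acute against control, 0.12 for Sst, 0.058 for Chodl and -0.011 for Lhx6 in chronic against control, and 0.36 for Calb2 and 0.10 for Chodl in chronic against acute. After quantile normalization Chodl was at 0.017 in chronic against acute. With each array left out in turn, acute against control ran from -0.23 to 0.16 for Nos1 and from -0.17 to 0.090 for Lhx6. Chronic against control ran from -0.088 to 0.17 for Lhx6, from -0.24 to 0.16 for Sst, from -0.18 to 0.037 for Npy and from -0.89 to 0.37 for Pvalb. Chronic against acute ran from -0.17 to 0.082 for Chodl, from -0.50 to 0.76 for Pvalb, from -0.83 to 0.73 for Calb2 and from -0.36 to 0.047 for Sst. The cause of these turns was not tested. Signal close to the dim end limits Chodl.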

Other observations

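Neuroblasts of the subventricular zone, which borders the striatum, give rise to olfactory bulb interneurons, many of which hold calretinin, the Calb2 product. Their 8 listed markers, all tested, had the lowest centred mean on acute 1, at -0.65, against -0.17 to 0.43 on the other 8 arrays. Cd24a, a surface protein of neuroblasts, was at 6.37 on acute 1, against 8.10 and 8.55 on the other acute arrays, 7.99 to 8.32 on the chronic arrays and 7.85 to 8.49 on the controls. Cd24a was picked after its values were seen, and not all markers in the list followed it. Sox11 was also lowest on acute 1, and Dcx and Dlx2 on an acute array. Sp9 was lowest on a control array, and Sp8, Igfbpl1 and Nrep on a chronic array. Acute 1 was also the array with the lowest Calb2 and the lowest Chodl. The highest neuroblast mean, 0.43, was on chronic 2, the array with the lowest Pvalb and the highest Nos1 and Sst. The centred mean of the 6 measured markers of pallidum stayed within -0.16 to 0.14 on all arrays. Single markers varied more, Lypd1 from 10.17 to 11.35 and Foxp2 from 9.18 to 9.87, and the rest spread over 0.36 to 0.67 log2 units. The part of these tissues in the interneuron values was not tested.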
